A study of Homo sapiens with 40 samples.

Results

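The genes described here are the human DNA repair and replication polymerase genes, taken from a catalogue of full-length transcript models by their names. A gene was included when its identifier began with XRCC, RAD and a digit, ERCC, FANC, the MSH or MLH stem of the mismatch repair genes, PARP and a digit, LIG1, LIG3 or LIG4, RPA1 to RPA3, RFC1 to RFC5, a POL name of a DNA polymerase or its subunit or partner, APEX, NEIL, RNASEH2 or BRCA, or when it was OGG1, MUTYH, UNG, TDG, BRIP1, NBN or MRE11. Names holding a dash or a low line were left out. The rule found 79 genes with 206 transcript models, of 9460 genes with 19972 models in the whole catalogue. Because the rule goes by name, it also takes in 7 genes with a model that were grouped here as outside repair, such as RAD21, a subunit of the cohesin ring. The grouping was made by hand and does not show that none of them acts in repair.

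The study examined messenger RNA on ribosomes in 2 cell types: neural progenitor cells (NPC) and the H9 line of human embryonic stem cells (ESC) they were made from. Dual-SMAD inhibition, the method of differentiation, blocks the BMP and activin branches of TGF-beta signalling. Frac-seq libraries, in which RNA is sequenced after it is separated by the number of ribosomes it carries, were made from NPC and from ESC for the heavy polyribosome fraction, with at least 5 ribosomes, the light polyribosome fraction, with 2 to 4, the monosome fraction and the cytosol. The labels give 40 libraries in 16 groups, with 2 long-read libraries (16 in all) and 3 short-read libraries (24 in all) for each fraction of each cell type. The labels name no genetic change and no further agent for either cell type. The table analysed here is 1 set of models from the long reads, which gives exon and coding positions but nothing for a single library. No cell type or fraction was therefore compared, no test was run, depth is unknown, and the lack of a model does not show that a gene was off.

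Of 9 markers of neural progenitors, 6 had a model (PAX6, NES, OTX2, FABP7, EMX2 and VIM), as did 7 of 9 markers of embryonic stem cells (POU5F1, NANOG, LIN28B, DNMT3B, TDGF1, ZFP42 and SALL4). Among markers of other cell types, 1 of 8 for mesoderm and endoderm (AFP) and 1 of 4 for neural crest (PAX3) had one. Markers of both labelled cell types thus had models, although the catalogue does not say which cells a model came from.

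Cells mend DNA by several routes that share enzymes with replication. Base excision repair cuts out single damaged bases, nucleotide excision repair removes bulky lesions, mismatch repair corrects copying errors, and strand breaks are rejoined by end joining or copied from the sister chromatid by homologous recombination. Pluripotent stem cells divide fast with a short first gap phase, and defects in many of these genes cause developmental syndromes of the nervous system, such as Cockayne syndrome with ERCC8 or ERCC6.

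Most genes of the family had at least 1 model. RefSeq lists 117 protein-coding genes that the rule names, and 79 of them (67.5%, 95% Wilson interval 58.6 to 75.3%) had a model, beside 8409 of all 20056 RefSeq protein-coding genes (41.9%). The 38 genes without a model are spread over the pathways. In base excision and single-strand break repair 13 of 15 genes had a model, and the ligase LIG3 and the glycosylase NEIL1 had none. Nucleotide excision repair had models for 8 of 9 genes, lacking the nuclease gene ERCC5. For mismatch repair, 4 of 7 genes had one, and MSH3, MSH4 and MSH5 had none. Among homologous recombination genes 11 of 18 were present, and BRCA2, NBN, RAD50, RAD51AP2, RAD51B, RAD52 and RAD54L2 were not. The Fanconi anaemia genes, whose products clear DNA crosslinks, had models for 5 of 10, without FANCB, FANCD2, FANCF, FANCI and FANCM. End joining had 5 of 7 genes, without LIG4 and POLQ, and the checkpoint clamp and its loader 3 of 4, without RAD9B. Translesion synthesis had 4 of 5, without POLN. Replicative polymerases, clamp loader, RPA and the replicative ligase had 15 of 19, without POLD3, POLE, RFC1 and RPA3. All 3 subunits of ribonuclease H2 had a model, and of the mitochondrial polymerase POLG2 had one and POLG none. Of 18 genes grouped as outside repair, 7 had a model, and FANCD2OS, PARP10, PARP12, PARP14, PARP15, PARP4, PARP6, PARP8, PARP9, POLGARF and RAD21L1 had none.

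The number of models per gene varied from 1 to 10. The 79 genes had a mean of 2.61 ± 2.16 models (SD over genes) and a median of 2, beside 2.11 ± 1.70 and a median of 2 for all 9460 genes. At least 2 models were present for 45 of the 79 genes (57.0%, 46.0 to 67.3%), beside 50% of all genes, and this interval includes the share of all genes. There were 34 genes with 1 model, 17 with 2 and 18 with at least 4. Those with the most included ERCC1 (10 models), POLB and RAD51C (9 each), ERCC8 (8), MUTYH (7), and APEX1 and POLD4 (6 each). Models of these genes had a median length of 1727 nt, 10 exons and 341 codons, beside 1537 nt, 6 exons and 285 codons over all models. The lengths and exons over all models include genes without any coding region. The longest, of MSH6, was 4258 nt, and the longest of any gene was 5877 nt.

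**Figure D1:**
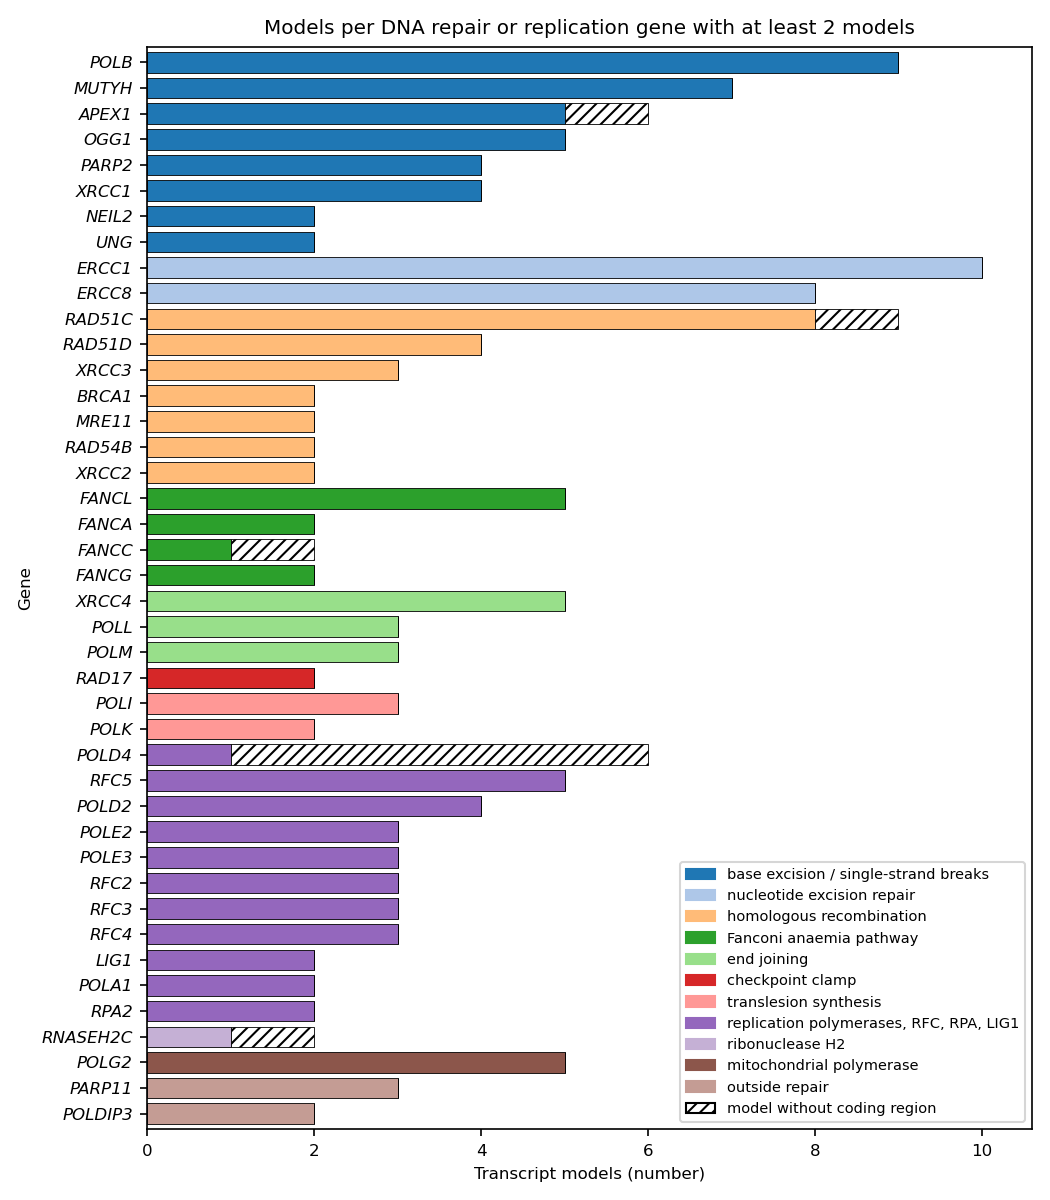
Number of transcript models (x axis) of each of 42 genes with at least 2 models (y axis), coloured by pathway, with models that lack a coding region hatched. ERCC1 has 10 models, all coding, and POLD4 has 6 of which 1 is coding.

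A coding region was deposited for 197 of the 206 models (95.6%, 91.9 to 97.7%), beside 86.4% of all models. These shares cover unlike sets: all 79 genes are protein-coding in RefSeq, but only 8579 of the 9460 genes in the catalogue had a coding region. The 9 models without one belonged to POLD4 (5 models) and to APEX1, FANCC, RAD51C and RNASEH2C (1 each). Of the 42 genes with at least 2 coding models, 37 (88.1%, 75.0 to 94.8%) had at least 2 different coding regions, beside 84.4% of all such genes. The other 5, APEX1, FANCG, MRE11, NEIL2 and XRCC3, had coding models that differed only outside the coding region.

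**Figure D2:**
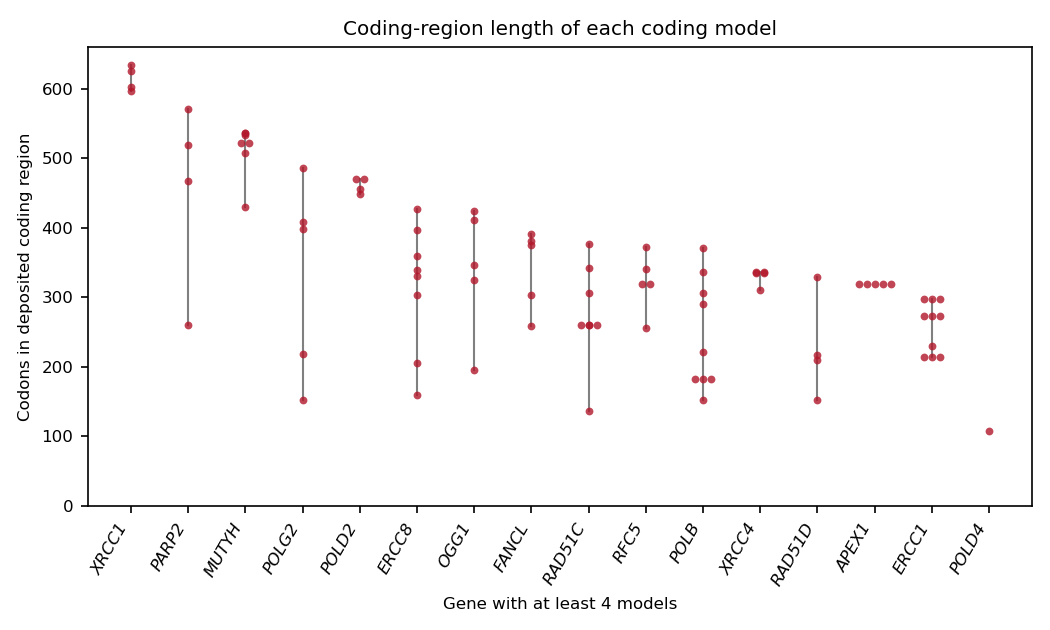
Codons in the deposited coding region (y axis) of each coding model of 16 genes with at least 4 models (x axis), 1 point per model, with a line from the shortest to the longest. The 5 coding models of APEX1 share 319 codons, whereas those of POLB run from 153 to 371.

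In base excision repair, POLB, which encodes the polymerase that fills the gap left by a removed base, had 9 models and 7 coding regions on chromosome 8. Coordinates here and below are those of the deposited models, counted from 1, on a genome build not given in the sources used here. The second exon of POLB (58 nt, 42339012 to 42339069) separated its models. The 4 models with this exon were assigned a start at 42338625 in the first exon, with 371, 336, 307 and 291 codons. The 5 models without it were assigned starts further downstream, at 42354494 for 222 codons and at 42357209 for 182 codons in 3 models and 153 in another. In all 5 the start assigned to the longer models was still present, 220 to 404 nt upstream of their own assigned start. A 105-nt exon (42354417 to 42354521) was present in 2 models and lengthened the coding region by 35 codons, to 371, against 336 without it. An 87-nt exon (42362612 to 42362698) added 29 codons, with 336 codons against 307 and 182 against 153. A 50-nt exon (42352519 to 42352568) lay upstream of the assigned start in the pair that differed by it, and both models had 182 codons.

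**Figure D3:**
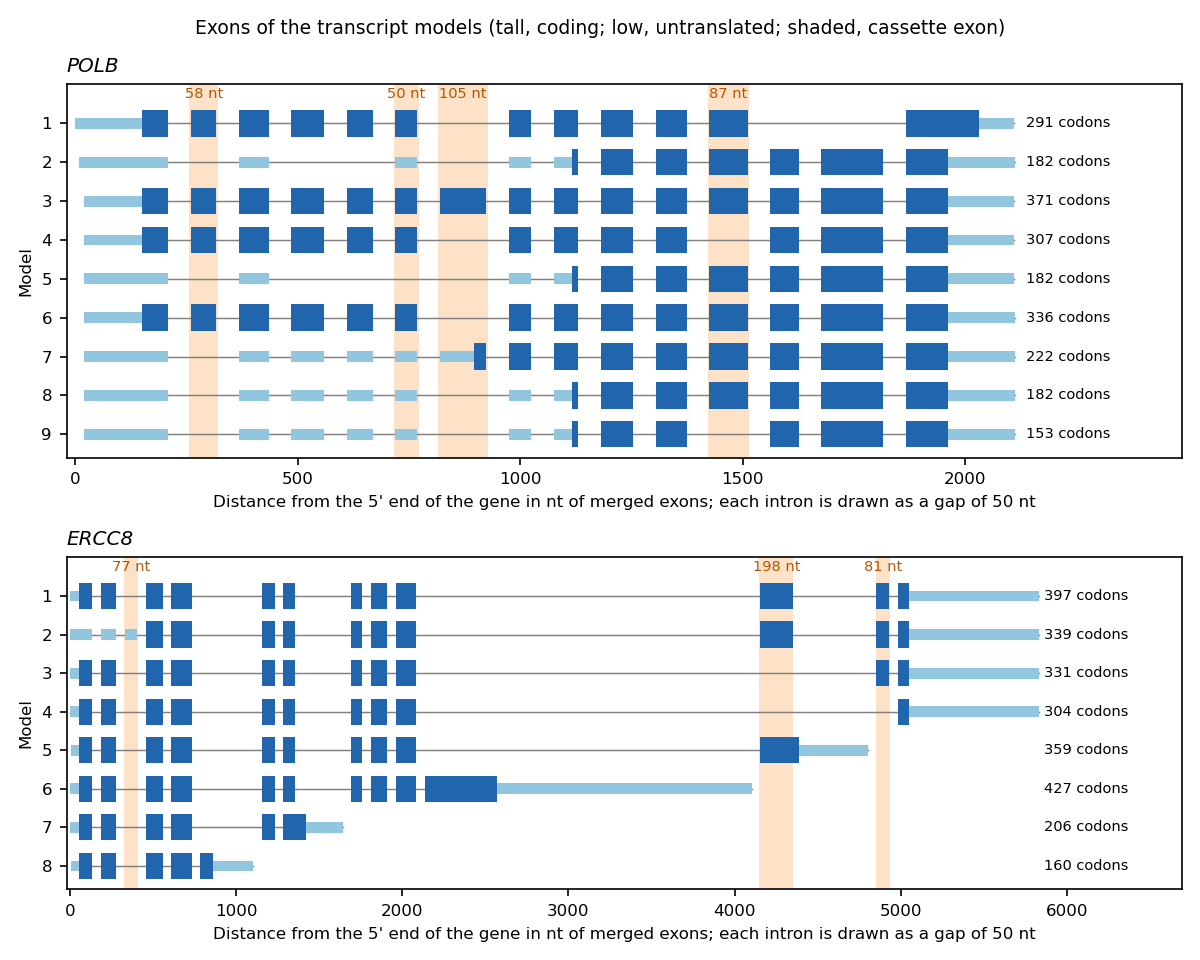
Exons of the 9 models of POLB and the 8 models of ERCC8, placed along the merged exons from the 5' end (x axis, nt, with every intron drawn as a gap of 50 nt), 1 row per model. Tall boxes are coding, low boxes untranslated, and shaded columns are cassette exons: POLB models without the 58-nt exon have their coding region only in later exons, and 4 of the 8 ERCC8 models end before the most distal last exon.

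MUTYH, the glycosylase that removes adenine paired with oxidised guanine, had 7 models with 6 coding regions on chromosome 1 and first exons in 3 neighbouring regions that do not overlap. The 2 models whose first exon was 45340219 to 45340414 were assigned a start there, at 45340254, and had 537 and 536 codons. Another 4 models, with first exons within 45339976 to 45340120 or 45339899 to 45339970, were assigned a start at 45334505 and had 533, 522, 522 and 508 codons. The remaining model had 430 codons. Alternative 3' splice sites of the third exon accounted for several of the differences: sites 3 nt apart (45333562 to 45333564) gave 537 and 536 codons, and sites 33 nt apart gave 533 and 522. When the site lay a further 64 nt downstream, the coding region was 430 codons with a later start, at 45333312. A 42-nt cassette exon (45332918 to 45332959), absent from 1 model, accounted for 522 codons with it and 508 without it.

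OGG1, which excises oxidised guanine, had 5 models on chromosome 3 that shared a start codon and ended at 5 different stops. The 3 models that ended at 9757402 or 9757404 had 346, 411 and 325 codons, and the 2 whose last exon began at 9765809 had 425 and 196. Among the first 3, the last exon began at 9757061 in the model of 346 codons, at 9757044, 17 nt further upstream, in that of 411, and at 9756767 in that of 325, where the intron was retained. OGG1 is known to make nuclear and mitochondrial proteins that differ at their carboxyl ends. UNG, which removes uracil, had 2 models on chromosome 12 with separate first exons (109097601 to 109097811 and 109098192 to 109098638), each with its own start, and 314 and 305 codons. Known forms of this enzyme, 1 nuclear and 1 mitochondrial, likewise differ at the amino end.

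APEX1, the endonuclease that cuts the strand at a lost base, had 6 models on chromosome 14, and its variation lay in the first exon. Its 5 coding models all had the same 319 codons from 20455646 to 20457508. Their 5' untranslated regions measured 164, 174, 225, 230 and 413 nt, from 4 donor sites within 66 nt of each other and 1 retained intron of 249 nt (20455329 to 20455577). The other model retained a further intron of 210 nt, which follows the start position, and had no coding region. NEIL2, a glycosylase for oxidised bases, had 2 models of 333 codons, with 5' untranslated regions of 300 and 138 nt that differed by a 162-nt exon.

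XRCC1, the scaffold that brings ligase and polymerase to single-strand breaks, had 4 models and 4 coding regions on chromosome 19. The longest had 634 codons. Without a 111-nt exon (43560910 to 43561020) it had 597, and without a 93-nt exon (43574910 to 43575002) 603, so both exons could be skipped in frame. The model with 626 codons began in another first exon, ending at 43580497. PARP2, a poly(ADP-ribose) polymerase that responds to strand breaks, had 4 models on chromosome 14, with 571, 519, 467 and 261 codons. Loss of 26 nt at the start of the ninth exon (20354809 to 20354834) gave the model of 261 codons. A retained intron of 117 nt near the 3' end gave 519 codons. PARP1, the main poly(ADP-ribose) polymerase, had 1 model with 1015 codons. The other genes of this pathway, the glycosylases TDG (411 codons) and NEIL3 (606), the endonuclease APEX2 (519) and the strand-break enzyme PARP3 (534), also had 1 model each.

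In nucleotide excision repair, ERCC1 and ERCC8 carried most of the 25 models, 10 and 8 of them. ERCC1, which forms the nuclease that cuts 5' of a lesion together with ERCC4, had 10 models on chromosome 19 with 4 coding regions, all from the start at 45423374. A 72-nt exon (45413963 to 45414034) set 298 codons, in 3 models, apart from 274 codons without it, also in 3 models. This difference of 24 codons was seen in 3 separate pairs of models that differed in no other splice site. A further model had 230 codons, and 3 had 214 with a stop at 45409686. First exons lay in 2 separate regions, 45423270 to 45423535 in 3 models and 45423781 to 45423917 in 7, and the 5' untranslated region measured 84 to 161 nt.

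ERCC8, the substrate receptor of the ubiquitin ligase that acts on stalled RNA polymerase, had 8 models on chromosome 5, no 2 with the same coding region, and 5 alternative last exons. The 4 models that reached the most distal last exon (60873832 to 60874683) had 397, 339, 331 and 304 codons. Relative to the model with 397, loss of a 198-nt exon (60890889 to 60891086) gave 331, and the further loss of an 81-nt exon (60887440 to 60887520) gave 304. Inclusion of a 77-nt exon (60924291 to 60924367), present in 1 of 8 models, went with a start further downstream and 339 codons. The other last exons lay upstream and gave 427, 359, 206 and 160 codons. The one with 359 codons began at the same base as the 198-nt exon and ran on, so that exon was internal in some models and terminal in another. RAD23B, which helps to hold the damage sensor XPC, had 1 model with 410 codons. The helicases of transcription factor IIH, ERCC2 (761 codons) and ERCC3 (783), had 1 model each, as did ERCC4 (469) and ERCC6 (308), the remodeller at stalled polymerases.

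In mismatch repair, MSH6, a subunit of a complex that recognises mismatches, had 1 model on chromosome 2 with 1361 codons, and MLH3, of a complex that cuts the new strand, had 1 with 579.

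Recombination genes RAD51C and RAD51D, whose products act in strand exchange, also varied. RAD51C had 9 models on chromosome 17, of which 8 were coding with 6 coding regions. Its longest had 377 codons. Loss of the first of its 61-nt exons (58724040 to 58724100) gave 343 codons, and the further loss of the other (58732484 to 58732544) gave 306. A different donor in the first exon, 103 or 156 nt upstream or 171 nt downstream, went with a start at 58695137 and 260 codons in 3 models, and 261 in another with 3 more nt at an acceptor. A short model of 136 codons ended at 58695334. RAD51D, on the same chromosome, had 4 models with 329, 217, 210 and 152 codons. Skipping of a 119-nt exon (35118501 to 35118619) separated 210 codons from 329, and skipping of a 135-nt exon (35106988 to 35107122) separated 152 from 210. The 135-nt exon held the start used by the model with 210 codons, at 35107110, so its loss moved the start although its length is divisible by 3. An 82-nt exon (35107366 to 35107447) separated 152 codons with it from 217 without it, and the start moved as well. XRCC2 had 281 codons with an 82-nt exon and 225 without it. XRCC3 had 3 models that all had 347 codons and differed by exons of 57 and 67 nt upstream of the start.

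Further recombination genes had 1 or 2 models each. BRCA1, which directs the resection of broken ends, had 2 models on chromosome 17 (43093590 to 43125383), with 647 and 645 codons. They differed by 3 nt at an acceptor (43099878 to 43099880), by 6 nt at a donor outside the coding region (43125271 to 43125276) and by their ends. The coding regions ran to within 2 nt of the end of the model, at 43093590 for 647 codons and at 43093593 for 645. MRE11, the nuclease that starts resection, had 2 models of 709 codons with 5' untranslated regions of 159 and 239 nt. RAD54B, a DNA translocase, had models of 911 and 159 codons, and its relative RAD54L had 1 model of 748. RAD51AP1, a cofactor of recombination, had 1 model of 336 codons and the helicase BRIP1 1 of 699.

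Among the Fanconi anaemia genes, FANCL, the ubiquitin ligase of the pathway, had 5 models on chromosome 2 with 5 coding regions and 1 stop. The longest had 391 codons. A 45-nt exon (58194229 to 58194273) separated 391 codons from 376, a donor 15 nt further on separated 381 from 376, and an acceptor shift of 2 nt (58226783 to 58226784) separated 376 from 303 with a later start. The remaining model had 10 exons and 259 codons, from a start at 58241240. The core complex genes FANCA, with 298 and 182 codons, and FANCC, with 1 coding model of 146 codons and 1 without a coding region, had 2 models each. FANCG had 2 models of 623 codons, with 5' untranslated regions of 483 nt where an intron of 195 nt was retained and 321 nt where it was spliced. FANCE had 1 model of 537 codons.

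In end joining, XRCC4, the partner of ligase IV, had 5 models on chromosome 5. A pair of acceptors 6 nt apart in its last exon (83353125 to 83353130) gave 337 or 335 codons. This pair recurred with each of 2 first exons, 83077593 to 83077615 and 83077618 to 83077662, which lie side by side. The fifth model ended in another last exon and had 311 codons. POLM, a gap-filling polymerase, had 551, 457 and 265 codons in 3 models, where a 53-nt difference at the last acceptor moved the stop between 551 and 457. Its relative POLL had 576 codons in 2 models and 200 in another. The Ku subunits XRCC6 (610 codons) and XRCC5 (733), which bind broken ends, had 1 model each. Of the checkpoint clamp genes, the loader RAD17 had models of 671 and 343 codons, and the clamp subunits RAD9A (392) and RAD1 (283) had 1 model each.

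Among translesion polymerases, which copy past damaged bases, POLI had 3 models on chromosome 18 with 716, 673 and 337 codons, and POLK had 2 with 871 and 239. POLH (701 codons) and the ubiquitin ligase RAD18 (496), which recruits them, had 1 each.

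The 5 replicative clamp loader genes are known to form 1 ring that sets the sliding clamp on DNA, and 4 had models. RFC5 had 5 models on chromosome 12 with 373, 341, 320, 320 and 256 codons, which shared their stop and began at 4 starts. Its models differed by which parts of the region 118017690 to 118018053 they kept: 126 nt and 59 nt as separate exons, either of them alone, the whole as 1 exon of 364 nt, or none. RFC2 had 355 codons, 321 without an in-frame 102-nt exon (74246662 to 74246763) and 252 without a 107-nt exon (74249012 to 74249118). RFC3 had 306 codons, 292 without a 70-nt exon, and 357 with another last exon. RFC4 had 364 codons in 2 models and 300 in another that retained introns of 77 and 70 nt.

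The small polymerase subunits also varied. POLD2, of polymerase delta, had 4 models on chromosome 7 with 470, 470, 456 and 449 codons, which differed by acceptor shifts of 42 nt (44115355 to 44115396) and 63 nt (44116210 to 44116272), both in frame. POLD4, of the same enzyme, had 6 models on chromosome 11, 1 with 108 codons and 5 without a coding region. They differed by donors in the first exon and by retained introns, from 185 to 461 nt. POLE2, of polymerase epsilon, had 547, 528 and 512 codons that ended at 3 stops, according to whether exons of 99 nt (49646994 to 49647092) and 68 nt (49647293 to 49647360) were kept. POLE3, a histone-fold subunit, gained 29 codons where an intron of 87 nt (113410141 to 113410227) was retained, 177 codons against 148. Its partner POLE4 had 1 model of 118 codons. POLA1, the catalytic subunit of the primer-making polymerase, had 2 models on chromosome X that did not overlap and shared no exon. The model of 429 codons spanned 24693918 to 24724421, and that of 161 codons 24812777 to 24996978. POLA2 had 1 model of 599 codons. POLD1, the catalytic subunit of polymerase delta, had 1 model of 1108 codons.

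RPA2, of the complex that coats single-stranded DNA, had 279 and 271 codons from different donors of the first exon, and RPA1 1 model of 617. LIG1, which seals Okazaki fragments, had 920 and 919 codons, 3 nt apart at an acceptor (48151337 to 48151339). The ribonuclease H2 genes, whose enzyme removes ribonucleotides from DNA, had 300 (RNASEH2A), 313 (RNASEH2B) and 165 codons (RNASEH2C), the last with a second model that retained an intron of 169 nt and had no coding region. POLG2, the accessory subunit of the mitochondrial polymerase, had 5 models on chromosome 17 with 486, 409, 399, 219 and 153 codons. A 201-nt exon (64481246 to 64481446) held a stop in 1 model and gave 409 codons, against 486 without it, and a 101-nt exon (64480289 to 64480389) separated 486 from 399. Use of a donor 125 nt upstream in the first exon gave 219 or 153 codons.

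Of the genes grouped as outside repair, PARP11, a mono-ADP-ribosyltransferase, had 3 models, with 339 codons where a 121-nt exon (3828910 to 3829030) was kept and 258 in 2 models without it. POLDIP3, a partner of polymerase delta and of S6 kinase, had 422 codons with an 87-nt exon, exon 3 (42601970 to 42602056) and 393 without it. Skipping of exon 3 of this gene is known in human cells that lack TDP-43. Single models were present for POLDIP2 (369 codons), the membrane protein PARP16 (323), RAD21 (632), the mitotic translocase ERCC6L (516) and ERCC6L2 (202).

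The kinds of splicing event in the 45 genes with at least 2 models were close to those of all 4731 such genes. A cassette exon, an internal exon of 1 model that another model skips, was present in 21 (46.7%, 32.9 to 60.9%), beside 49.3% of all, and in 5 of them both forms were present in at least 2 models. Alternative 5' splice sites were present in 14 genes (31.1%, beside 25.2%) and alternative 3' splice sites in 14 (31.1%, beside 23.3%). Retained introns were found in 10 (22.2%, beside 17.3%), alternative first exons in 8 (17.8%, beside 18.0%) and alternative last exons in 12 (26.7%, beside 26.9%). Each of these Wilson intervals includes the share of all genes. The counts of alternative first and last exons both include POLA1, whose 2 models do not overlap. First exons that lie only a few nt apart without overlap, as in XRCC4, MUTYH and POLL, also count as alternative.

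Acceptors at most 12 nt apart were more frequent than the background. They occurred in 9 of the 45 genes (20%, 10.9 to 33.8%), beside 8.98% of all, with 1 event in each gene. The distance was 3 nt in 5 genes, among them BRCA1, LIG1, MUTYH and RAD51C, which adds or removes 1 codon, and 6 nt in XRCC4. It was 2 nt in FANCL, which shifts the frame, and 10 nt in XRCC3, outside the coding region. The interval counts sampling of genes only, and the genes were not chosen at random, so the difference was not tested. The share was not adjusted for exons per model (median 10 in the family, beside 6) or models per gene (mean 2.61, beside 2.11).

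**Figure D4:**
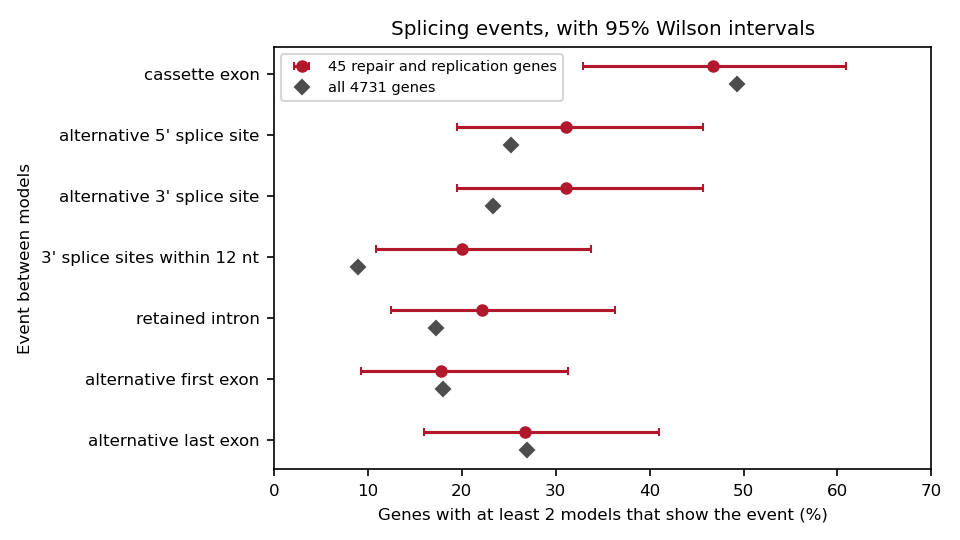
Share of genes with at least 2 models that show each event (x axis, %), for the 45 repair and replication genes (red circles with 95% Wilson intervals) and for all 4731 genes (grey diamonds). The share with acceptors at most 12 nt apart is 20% in the repair and replication genes, beside 8.98% in all.

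The 38 cassette exons lay in 21 genes, and 27 of them, in 17 genes, were coding, here meaning wholly within the coding region of at least 1 model. Of these, 12 (44.4%, 27.6 to 62.7%) had a length divisible by 3, beside 44.1% of all 2133 coding cassette exons in the catalogue. Where both forms were present in at least 2 models, 3 of 6 were divisible by 3. All 27 could be followed in a pair of models that differed by that exon alone. Of the 12 divisible by 3, 10 were removed with the same start and stop, the RAD51D exon of 135 nt moved the start, and the POLB exon of 105 nt did so in 1 pair and not in another. Of the 15 not divisible by 3, 8 moved the assigned start downstream or upstream, 6 moved the stop, and the POLB exon of 50 nt changed neither. Exons whose loss moved the stop included those of POLE2, POLG2, RAD51C and RFC3. The definition leaves out exons that are only partly coding. Among these are the POLG2 exon of 201 nt and the POLE2 exon of 99 nt, which hold a stop, and the RFC5 exon of 126 nt, which holds a start. Their lengths are divisible by 3, and the stop or start differed between models with and without them. The shares above therefore do not cover such exons.

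**Figure D5:**
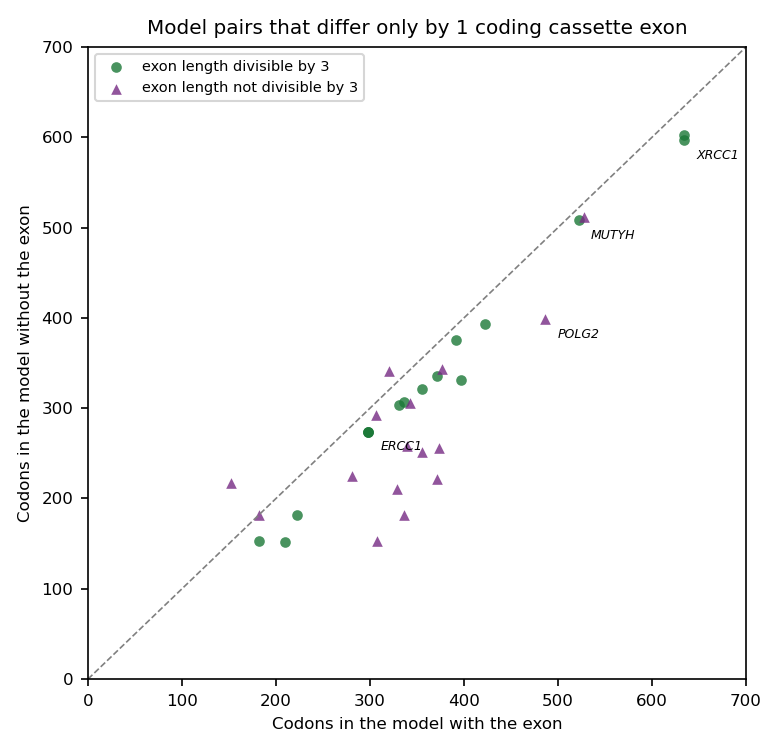
Codons of the model with a coding cassette exon (x axis) and of the model without it (y axis), for pairs of models that differ by that exon alone, with the line of equality dashed. Exons divisible by 3 (circles) lie below the line, as for XRCC1 with 634 against 597 and 603 codons and ERCC8 with 397 against 331. The others (triangles) are more spread. Some lie far below the line, as for POLG2 with 486 against 399, some near it, as for POLE2 with 528 against 512, and some above it, as for RAD51D with 152 against 217.

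Downstream starts were present in the family at a share whose interval includes the background share. Of 160 coding models in genes with several, 32 (20%, 14.5 to 26.9%), in 18 genes, held in their 5' untranslated region a start that another model of the gene used for its own coding region, beside 16.5% of all such models. Examples are RFC2, where the model of 252 codons carried the start of the longer models 202 nt upstream of its own assigned start, and XRCC2, where the model of 225 codons carried it 86 nt upstream. All 5 POLB models without the 58-nt exon did so as well. The deposited coding regions are computed assignments, and which start is used in the cells was not measured here.

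Few models were candidates for nonsense-mediated decay, the destruction of mRNA with an early stop, taken here as one over 50 nt before the final exon junction. They occurred in 2 of the 79 genes (2.53%, 0.697 to 8.77%), beside 5.01% of all 8579 genes with a coding region. This interval includes the share of all such genes. The 2 genes were PARP2, whose model of 261 codons had its stop 744 nt upstream of the junction, and POLG2, whose models of 409 and 153 codons had it at 266 and 909 nt. Next to the limit, the POLE2 model of 547 codons had its stop 23 nt upstream of the junction. These counts rest on the deposited coding regions. For the 32 models, in 18 genes, that held an upstream start of another model, reading from that start was not scored. An early stop reached from there would be missed.

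Some coding regions ran to the end of their model. In 11 of 197 coding models (5.58%, 3.15 to 9.72%), in 10 genes, no more than 2 nt followed the coding region, beside 3.0% of all coding models. These were both BRCA1 models, BRIP1 (699 codons), ERCC4 (469), ERCC6 (308), ERCC6L (516), MLH3 (579), 1 model of POLA1 (429), POLH (701), 1 of POLK (239) and 1 of RAD17 (343). For these the catalogue shows no 3' untranslated region, and the codon counts are those of the model as deposited. Whether such models are cut short was not tested.

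Some of these genes start beside another gene on the opposite strand. A model of another gene that ran the other way began within 1000 nt of the 5' end for 21 of the 79 genes (26.6%, 18.1 to 37.2%), beside 17.4% of all genes. These shares cover unlike sets, since only 8579 of all 9460 genes had a coding region. They were not adjusted for models per gene (mean 2.61 in the family, beside 2.11), and the difference was not tested. Only the closest pair of 5' ends was taken for each gene, and other models of a gene can start elsewhere. In all 21 this closest pair lay apart, and 12 of the distances were below 200 nt. Among the shortest were XRCC1 and PINLYP (54 nt), ERCC8 and NDUFAF2, a respiratory complex assembly factor (82 nt), RPA1 and SMYD4 (87 nt), POLL and DPCD (99 nt), and MUTYH and TOE1, an RNA deadenylase (103 nt). TDG and C12orf73, and POLDIP2 and TMEM199, lay 133 nt apart. Other pairs below 200 nt were ERCC6L2 and ERCC6L2-AS1 (137 nt), MRE11 and ANKRD49 (144 nt), APEX1 and OSGEP, a tRNA-modifying enzyme (180 nt), and RAD1 and the ribosome assembly factor BRIX1 (199 nt). Pairs between 207 and 455 nt included BRCA1 and NBR2, XRCC4 and TMEM167A, XRCC6 and DESI1, RAD17 and TAF9, POLK and CERT1, XRCC3 and ZFYVE21, RAD51AP1 and C12orf4, and PARP3 and RRP9.

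Promoter windows of 5 genes of such pairs are shown because a neighbour on the other strand starts close by in each. They come from RefSeq (GRCh38.p14), each 300 bases read 5' to 3' on the gene's strand (given as + or -), for APEX1 at chr14:20454976-20455275 (+), ERCC8 at chr5:60945021-60945320 (-), MRE11 at chr11:94493795-94494094 (-), RPA1 at chr17:1829755-1830054 (+) and TDG at chr12:103965622-103965921 (+). Capitals mark matches on either strand to 5 kinds of motif: the CCAAT box (CCAAT), the GC box (GGGCGG), an E2F site (TTTCGCGC or TTTGGCGC), the NRF1 core (CGCATGCG) and an ETS site (CCGGAAGT). None of these motifs contains another. E2F factors are known to switch on replication genes when cells enter S phase.
APEX1: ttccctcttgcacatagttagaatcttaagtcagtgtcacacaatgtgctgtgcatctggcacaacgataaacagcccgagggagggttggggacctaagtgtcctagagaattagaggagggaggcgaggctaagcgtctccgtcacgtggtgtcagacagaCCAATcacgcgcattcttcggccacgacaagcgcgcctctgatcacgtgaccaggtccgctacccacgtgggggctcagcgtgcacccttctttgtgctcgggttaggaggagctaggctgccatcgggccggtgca
ERCC8: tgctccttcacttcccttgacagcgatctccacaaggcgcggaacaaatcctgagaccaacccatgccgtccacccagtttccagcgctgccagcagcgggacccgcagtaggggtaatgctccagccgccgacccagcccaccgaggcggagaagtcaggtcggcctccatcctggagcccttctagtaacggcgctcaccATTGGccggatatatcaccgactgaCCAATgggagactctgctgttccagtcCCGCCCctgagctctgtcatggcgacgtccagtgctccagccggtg
MRE11: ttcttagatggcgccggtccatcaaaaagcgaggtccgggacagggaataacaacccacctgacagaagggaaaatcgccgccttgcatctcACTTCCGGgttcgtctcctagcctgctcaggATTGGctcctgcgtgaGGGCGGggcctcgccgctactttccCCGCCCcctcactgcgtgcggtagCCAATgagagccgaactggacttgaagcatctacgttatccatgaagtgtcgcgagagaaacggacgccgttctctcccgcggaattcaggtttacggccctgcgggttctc
RPA1: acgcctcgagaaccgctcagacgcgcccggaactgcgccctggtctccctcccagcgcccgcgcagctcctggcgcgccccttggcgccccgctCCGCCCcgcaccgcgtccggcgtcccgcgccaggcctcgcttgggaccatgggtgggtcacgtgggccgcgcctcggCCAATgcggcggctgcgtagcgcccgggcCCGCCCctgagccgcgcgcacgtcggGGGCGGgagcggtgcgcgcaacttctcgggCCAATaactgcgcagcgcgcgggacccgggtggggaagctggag
TDG: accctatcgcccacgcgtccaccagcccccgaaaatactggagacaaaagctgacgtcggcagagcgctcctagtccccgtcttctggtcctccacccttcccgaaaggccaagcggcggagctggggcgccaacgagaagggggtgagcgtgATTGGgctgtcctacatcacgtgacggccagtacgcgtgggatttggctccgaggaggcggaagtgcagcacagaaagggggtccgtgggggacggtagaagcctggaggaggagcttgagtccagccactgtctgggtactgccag

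The MRE11 window held 2 CCAAT boxes, 2 GC boxes and 1 ETS site, RPA1 2 CCAAT boxes and 3 GC boxes, ERCC8 2 CCAAT boxes and 1 GC box, and APEX1 and TDG 1 CCAAT box each. Over all 69 genes of the family with a window, 33 (47.8%) held a CCAAT box, beside 36.4% of all 15843 windows, and of the 19 with a neighbour as above 13 did (68.4%). A GC box was in 53 of the 69 (76.8%), beside 58.5% of all, and in 14 of the 19 (73.7%). The E2F motif, in either form, was in 5 (7.25%, beside 1.67%), the NRF1 core in 7 (10.1%, beside 2.88%) and the ETS site in 10 (14.5%, beside 6.19%). The 69 genes all have a model, whereas the 15843 windows belong to RefSeq protein-coding genes with or without one, so the shares cover unlike sets. Motif shares for all genes with such a neighbour were not computed. Windows follow RefSeq's gene starts and were not placed against the models. A match is a run of letters and not a measured site, and the shares were not tested.

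Of 88 further genes of DNA repair and its signalling that the naming rule does not cover, 66 (75.0%, 65.0 to 82.9%) had a model, beside 41.9% of all RefSeq protein-coding genes. At least 2 models were present for 44 of those 66 (66.7%, 54.7 to 76.8%), beside 50% of all genes. The most were in APTX, which cleans 5' ends for ligation (17 models), PAXX, an end-joining factor (13), SMUG1, a uracil glycosylase (11), and ALKBH2, which reverses base alkylation, and GTF2H2, a subunit of transcription factor IIH (9 each). None of the kinase gene PRKDC, the XPC damage sensor gene or the helicase gene WRN had a model, and the clamp gene PCNA had 2.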

How the data were processed

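The values used are the boundaries (nt) of exons and coding regions in the authors' deposited transcript models, which name PacBio as their source and hold no value per library. Per the labels' protocols, libraries were strand-specific, made from polyadenylated RNA with 15 PCR cycles, or 17 for the monosome fraction. Long-read libraries used R2C2, which reads a circularised cDNA repeatedly. STAR 2.7.8a and Salmon 1.9.0 are listed, without a role, per the submitters' processing notes. Not given in the sources used here are the genome build, the annotation, and how models and coding regions were called or filtered. A catalogue built from reads depends on depth and on transcript length and abundance, so long or rare mRNAs may be absent.

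Gene names and types were checked against RefSeq (GRCh38.p14), which held all 79 names. Another 2 identifiers were left out for a dash. Python 3.11.15, numpy 2.4.6 and scipy 1.17.1 were used, and event detection was tested on simulated data. Within a gene, a cassette exon is internal in 1 model while another joins its flanking splice sites. Alternative splice sites share the other end of the intron, and a retained intron lies within an exon of another model. First or last exons are alternative when they do not overlap. Pairs of models differ by 1 event and by no other splice site. The final codon of a coding region is counted. Wilson intervals (95%) cover counting error only and genes are not replicates. The planned comparison with RefSeq protein lengths was not run, since no protein table was used here.

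Of the 79 genes with a model, 75 are named and 4 are not reported here. The models of those 4 stay in the counts over all genes and are left out of the plots of single genes and models. Among those named, genes with at least 4 models, a coding cassette exon, a decay candidate or a terminal exon that changes the coding region are described at more length. The members, the motifs and the lists of markers and further repair genes were chosen with earlier results of these data known. Alternatives are given in the closing section.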

Additional observations from a re-analysis of the deposited data

How the results depend on the processing

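Most counts stayed within 1.5 times of the reported value. Without the genes grouped as outside repair, 72 genes had a model, 43 at least 2 models and 19 a cassette exon. Matching by synonyms left 79 genes. Leaving out the 23 models contained in a longer one left 183 models, 39 genes with at least 2 models and 32 with at least 2 coding regions. Coding models alone gave 197 models and 42 genes. Leaving out coding regions near a model end gave 33 genes with at least 2. Decay candidates were in 2 genes at 55 nt and in 3 at any distance above 0 nt. The exception was support: requiring each form in at least 2 models left 5 genes with a cassette exon, against 21, and 3 of 6 coding cassette exons divisible by 3, against 12 of 27. By construction, the 61 genes with at most 3 models cannot meet this. Comparison with RefSeq protein lengths was not run. No paired analysis was possible because the models carry no value per library. Depth per library is unknown, so the number of reads behind a model cannot be given.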
